A study of Mus musculus with 7 samples.

Results

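The Jak, Stat and Socs genes studied here encode the core of cytokine signalling: the Janus kinases Jak1, Jak2, Jak3 and Tyk2, the transcription factors Stat3, Stat5a and Stat5b, and the feedback inhibitors Socs1, Socs3 and Cish. They were read in hematopoietic stem cells (HSCs) of mice aged 8 weeks, on 3 arrays from Ahr knockout mice (Ahr-KO) and 4 from mice with wild-type Ahr (WT), all on the C57BL/6J background. Ahr encodes the aryl hydrocarbon receptor, a transcription factor activated by aromatic ligands, and the question was how its loss changes HSC transcripts. Members were the array's probe sets that the platform annotation gives to a single one of the 10 genes: 11 of the 41155 rows, covering 9 of the 22180 genes that have such a probe set. Socs3 and Cish had 2 probe sets each. Jak3 is not described, because the only row naming it also names Insl3, a gene that overlaps the end of Jak3. Marrow was depleted of lineage-positive cells and HSCs were isolated by SLAM-family surface proteins. The labels name neither the Ahr allele nor the number of mice behind an array, so the p-values speak only of how much these arrays vary, which may be technical variation.

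A cytokine that binds its receptor brings receptor-bound Janus kinases together. They phosphorylate the receptor and then the Stat proteins, which pair, enter the nucleus and bind DNA at sites with the core TTCNNNGAA. Cish and the Socs genes are classical Stat targets whose proteins shut the receptor down again, so their transcripts are widely used as a readout of recent cytokine signalling. In HSCs, thrombopoietin signals through Jak2 to Stat5, and loss of Stat5 impairs stem cell function.

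The promoter windows of Cish and Socs3 are printed because these genes held the largest differences between genotypes among the members. Each window is RefSeq sequence of build GRCm38.p6, from 250 bases before to 50 after the gene's start, 5′ to 3′ on the gene's strand. Capitals mark every match to TTCNNNGAA, which reads the same on both strands in its fixed letters. Cish lies on the plus strand (chr9:107296409-107296708) and Socs3 on the minus strand (chr11:117969317-117969616).
Cish: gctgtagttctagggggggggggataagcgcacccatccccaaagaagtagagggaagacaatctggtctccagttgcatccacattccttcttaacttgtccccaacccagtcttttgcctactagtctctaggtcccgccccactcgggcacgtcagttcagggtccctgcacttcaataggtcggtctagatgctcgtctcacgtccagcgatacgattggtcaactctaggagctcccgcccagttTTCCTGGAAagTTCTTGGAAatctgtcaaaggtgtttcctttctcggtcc
Socs3: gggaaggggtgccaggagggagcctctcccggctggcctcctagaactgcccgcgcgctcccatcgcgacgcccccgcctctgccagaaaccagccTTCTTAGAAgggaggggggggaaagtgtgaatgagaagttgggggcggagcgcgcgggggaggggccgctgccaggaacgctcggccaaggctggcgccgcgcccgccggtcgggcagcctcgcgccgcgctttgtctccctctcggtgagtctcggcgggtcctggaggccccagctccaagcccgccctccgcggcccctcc

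Cish held 2 matches, TTCCTGGAA at bases 251 to 259 of its window and TTCTTGGAA at bases 262 to 270. Socs3 held 1 match, TTCTTAGAA, at bases 97 to 105. RefSeq gave 12 windows for the 10 genes, with Stat5a and Stat5b having 2 each, and the other 10 windows held no match. Of all 32851 windows, 8.3% held at least 1 match and 0.46% at least 2. The core recognised by the aryl hydrocarbon receptor, GCGTG on either strand, occurred in 5 of the 12 member windows and in 32.39% of all windows. Those were windows of Jak1, Jak2, Tyk2, Stat3 and Stat5b. The Jak2 window held 4 copies. Neither Cish nor Socs3 held a copy. A match is a string of letters, not a measured binding site.

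Array medians ran from 16.9 to 22.1 intensity units over all rows, and 800 to 1621 rows per array were listed at exactly 0, none of them a member. As a background mark, each array's 95th percentile over 1108 probe sets of olfactory receptors was taken (33.8 to 42.8). Ahr itself read 26.4 to 137 on the Ahr-KO arrays and 14.9 to 57.9 on the WT arrays, so the values were not lower under the knockout label. Whether its probe set covers the deleted part is not stated, so it cannot check the genotype. Kit, a receptor gene of stem and progenitor cells, stood at 653 to 833 on Ahr-KO arrays and 747 to 1258 on WT arrays. Slamf1, the CD150 gene, stood at 57.4 to 236 on Ahr-KO arrays and 4.56 to 73.3 on WT arrays, above the mark on all 3 Ahr-KO arrays but on only 1 of the 4 WT arrays. Cd48, whose protein SLAM-sorted HSCs lack, stood at 117 to 443 on Ahr-KO arrays and 11.5 to 679 on WT arrays.

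No kinase probe set passed the test between genotypes. Jak1, the kinase shared by interferon, interleukin-6 and common gamma chain receptors, stood at 24.4, 1049 and 538 on the Ahr-KO arrays, against 356, 272, 708 and 584 on those of WT (replicates in order). All 4 WT arrays and 2 of the Ahr-KO arrays were bright, and Ahr-KO replicate 1 alone fell below the background mark. On the log2 scale Ahr-KO minus WT was -0.88 ± 1.21 (SE; limma adjusted p = 0.966). It took the opposite sign, 0.75, without Ahr-KO replicate 1. In bulk RNA, a change in the share of cells that express a gene cannot be told apart from a change in its RNA per cell.

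Jak2, the kinase of the thrombopoietin and erythropoietin receptors, stood at 32.2, 140 and 68.9 on the Ahr-KO arrays, against 40.7, 153, 268 and 226 on those of WT. The lowest WT array, replicate 1, lay among the Ahr-KO values, and the other 3 WT arrays lay above all of them. On the log2 scale Jak2 differed by -1.03 ± 0.80 (SE; limma adjusted p = 0.963), with a 95% interval from -2.88 to 0.82. Without WT replicate 1 it was -1.61, and the genotypes no longer overlapped. Tyk2, a kinase of type I interferon and interleukin-12 receptors, lay near the background mark, at 16.7, 32.8 and 44.7 on the Ahr-KO arrays, against 51.3, 14.5, 68.4 and 16.8 on those of WT. It exceeded the mark on 1 Ahr-KO and 2 WT arrays. The genotypes were interleaved, and Tyk2 differed by -0.07 ± 0.70 on that scale (SE; limma adjusted p = 0.996). Its sign turned when Ahr-KO replicate 1 was left out, and likewise for WT replicates 1 and 3.

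Stat3, which transmits interleukin-6 and G-CSF signals, stood at 218, 114 and 511 on the Ahr-KO arrays, against 143, 10.7, 273 and 239 on those of WT. WT replicate 2 was the only array under the background mark, and the remaining arrays of the 2 genotypes overlapped. This gave a log2 difference of 1.19 ± 1.16 (SE; limma adjusted p = 0.963), and of 0.15 once WT replicate 2 was left out. Stat5b and Stat5a, the close paralogs that act downstream of thrombopoietin and interleukin-3, lie side by side on chromosome 11, next to Stat3. Probes shared between the paralogs were not checked, so the split of signal between them is uncertain. Stat5b stood at 51.1, 270 and 213 on the Ahr-KO arrays, against 494, 25.4, 2.80 and 95.2 on those of WT. The highest and the lowest of the 7 values were both WT, a 176-fold range with its lower end under the mark, the widest of the 10 member probe sets whose lowest value was at least 1. Ahr-KO minus WT came to 1.63 ± 1.54 (SE; limma adjusted p = 0.963), and 0.42 without WT replicate 3. Stat5a stood at 19.2, 217 and 16.5 on the Ahr-KO arrays, against 25.7, 23.0, 116 and 125 on those of WT. It was above the mark on 1 Ahr-KO and 2 WT arrays, and Stat5a differed by -0.38 ± 1.07 log2 units (SE; limma adjusted p = 0.982). Leaving out Ahr-KO replicate 1, Ahr-KO replicate 3 or WT replicate 4 turned its sign.

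**Figure D1:**
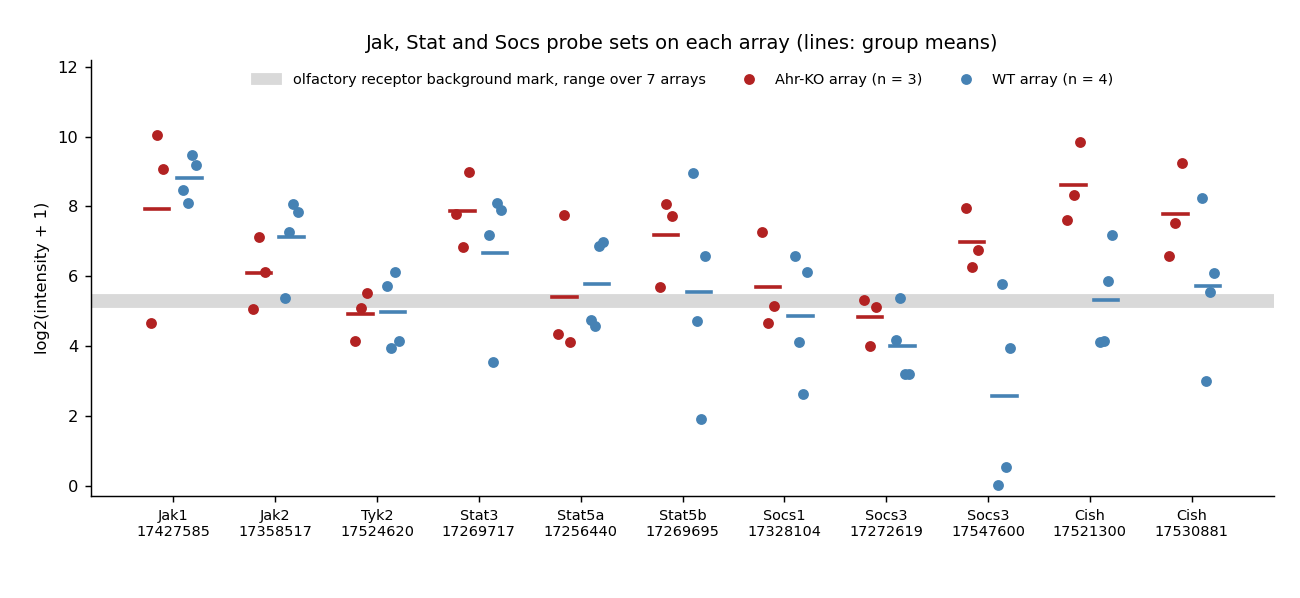
Each point is an array's log2(intensity + 1) for a member probe set, red for Ahr-KO (n = 3) and blue for WT (n = 4), with lines at group means and a grey band for the range of the background mark over the 7 arrays. The groups are separate for Cish 17521300 and Socs3 17547600 and overlap for the other 9 probe sets.

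Among the inhibitors, the highest intensities of Cish and Socs3 lay on Ahr-KO arrays in 3 of their 4 probe sets, but no member passed the adjusted threshold. Cish, whose protein CIS docks on activated receptors and damps Stat5 signalling, was read by probe set 17521300 at 195, 320 and 928 on the Ahr-KO arrays, against 16.5, 16.6, 57.5 and 145 on those of WT. Every Ahr-KO array exceeded every WT array, and WT replicates 1 and 2 lay below the background mark. The means were 481 ± 392 (SD, n = 3) and 58.9 ± 60.5 (SD, n = 4). The log2 difference was 3.27 ± 0.91 (SE; limma unadjusted p = 0.00742, adjusted p = 0.963), and an exact permutation test over the 35 splits of the arrays returned 0.0571 (two-sided), with 0.0286 the smallest p it can return. Left out singly, no array took the difference below 2.64 (without Ahr-KO replicate 3) or above 3.89 (without WT replicate 4).

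The other Cish probe set, 17530881, stood at 95.4, 184 and 604 on the Ahr-KO arrays, against 303, 7.03, 46.2 and 67.8 on those of WT. Its 3 Ahr-KO values lay above WT replicates 2, 3 and 4, and the Ahr-KO arrays ranked alike on both Cish probe sets, but WT replicate 1, low on the other probe set, was the second brightest array here. On the log2 scale it differed by 2.06 ± 1.20 (SE; limma unadjusted p = 0.127, adjusted p = 0.963). It was 2.90 without WT replicate 1 and 1.15 without WT replicate 2. Which part of the transcript each probe set covers was not known here.

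Socs3, whose protein inhibits Jak kinases on receptors that use gp130 or the G-CSF receptor, was read by probe set 17547600 at 246, 76.7 and 107 on the Ahr-KO arrays, against 0.01, 54.5, 0.46 and 14.3 on those of WT. All Ahr-KO values were above the mark and above all WT values, of which only replicate 2 passed it. Its log2 difference was 4.42 ± 1.40 (SE; limma unadjusted p = 0.0137, adjusted p = 0.963), and the two-sided exact permutation p was 0.0571. Its size rests on WT values near 0. With a pseudocount of 16 in place of 1 the difference was 2.39. Leaving out single arrays gave 3.57 (without WT replicate 1) to 5.50 (without WT replicate 2).

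The other Socs3 probe set, 17272619, was dim, at 39.2, 15.2 and 33.9 on the Ahr-KO arrays, against 17.1, 40.7, 8.13 and 8.30 on those of WT. It passed the mark on Ahr-KO replicate 1 alone, and its highest value was WT replicate 2. It differed by 0.83 ± 0.68 log2 units (SE; limma adjusted p = 0.963), so the 2 Socs3 probe sets shared a direction but not a separation of the groups. Socs1, an inhibitor of interferon signalling, stood at 154, 24.4 and 34.4 on the Ahr-KO arrays, against 95.2, 16.3, 5.15 and 68.5 on those of WT. The brightest array of each group passed the mark, as did WT replicate 4, and the groups overlapped. Socs1 differed by 0.84 ± 1.09 log2 units (SE; limma adjusted p = 0.965). The difference was 0.05 without Ahr-KO replicate 1 and 0.09 without WT replicate 3.

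**Figure D2:**
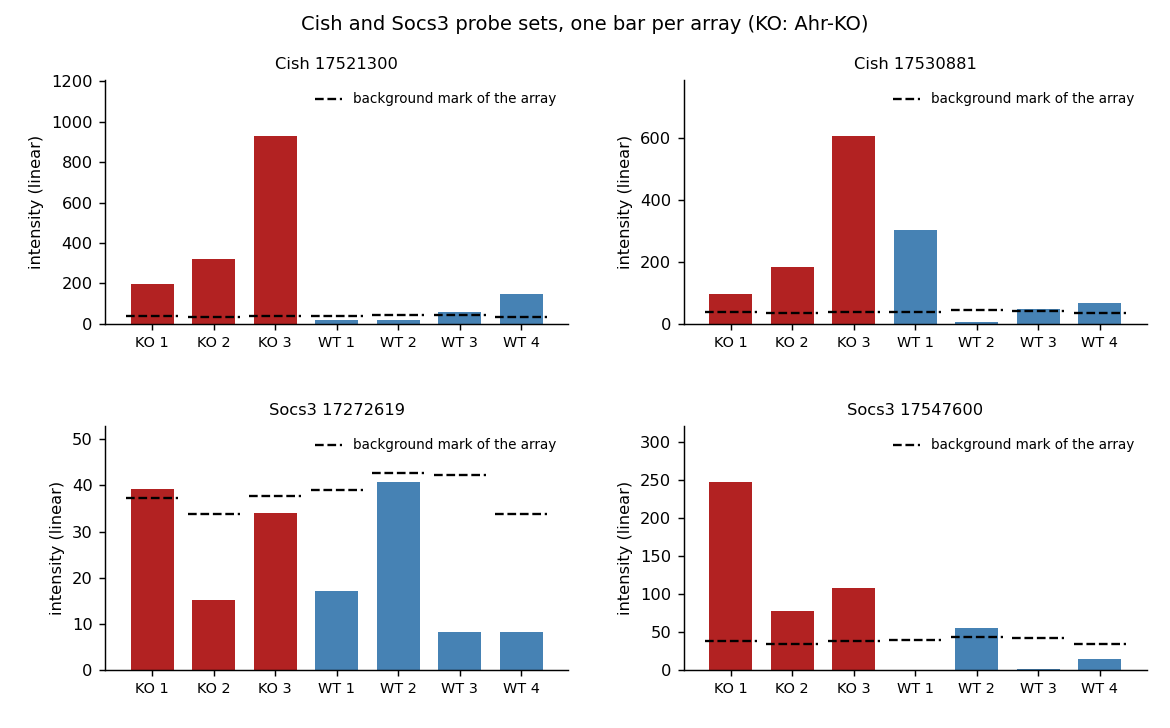
Bars give the linear intensity of the 4 Cish and Socs3 probe sets on each array, red for Ahr-KO and blue for WT, with a dashed line at that array's background mark. Cish 17521300 and Socs3 17547600 exceed the mark on all 3 Ahr-KO arrays, and WT replicate 1 is bright on Cish 17530881 (303) but not on Cish 17521300 (16.5).

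Across the 11 probe sets, 0 passed an adjusted p of 0.05 by limma (0% of the 25335 tested), and 2 had an unadjusted p under 0.05. That is 18.2%, where 4.21% of all tested probe sets were under 0.05, and 1.99% were under it with higher values in Ahr-KO, the direction of both. The groups did not overlap for the same 2 probe sets, against 5.74% of all tested and 2.61% in that direction. Without WT replicate 1 both counts were 4, with Jak2 and Cish 17530881 added. In that fit 3.93% of all tested probe sets had an unadjusted p under 0.05 by limma. The share of all probe sets without overlap was not counted there. With fewer arrays, groups separate more readily by chance, so 5.74% is not its reference. Values were higher in Ahr-KO for 7 of the 11 (63.6%, against 48.3% of all tested). Both probe sets of Cish and both of Socs3 are among the 7, so these genes count more than once. The median difference was 0.84 log2 units, and -0.03 over all tested probe sets. A difference of at least 1 log2 unit in either direction was present in 6 of the 11 (54.5%, against 24.1%). The spread between arrays was wide as well. For 10 of the 11 the residual SD within genotype exceeded the median of tested probe sets within 0.5 log2 units of the same mean level. For Jak1 it was 1.88 against 0.82, and for Stat5b 2.44 against 1.21. Jak2 was the exception, at 1.15 against 1.19.

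**Figure D3:**
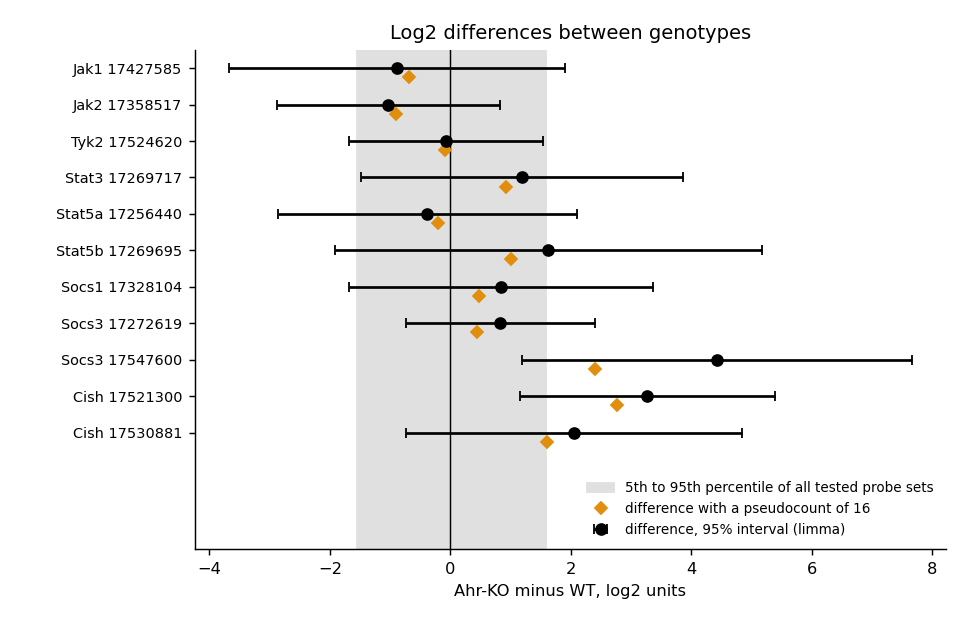
Points are log2 differences, Ahr-KO minus WT, with 95% intervals from limma that are not adjusted for the number of probe sets, and diamonds are the same differences with a pseudocount of 16. The grey band spans the 5th to the 95th percentile of all tested differences (-1.55 to 1.59). The intervals of Cish 17521300 (1.15 to 5.38) and Socs3 17547600 (1.19 to 7.66) lie above 0, and the other 9 include it.

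Detection varied by array. Of the 77 member values, 48 exceeded the background mark. No member exceeded it on all 7 arrays, as 14.4% of tested probe sets did, and Jak1, Jak2, Stat3 and Cish 17530881 did so on 6. WT replicate 2 had 3 of the 11 member probe sets above the mark, Jak1, Jak2 and Socs3 17547600, and the other arrays 7 or 8. The same array had the smallest share of all tested probe sets above the mark, 30.7%, where the others had 34.0 to 44.9%. Without it the differences of Stat3 and Cish 17530881 were 0.15 and 1.15, while those of Cish 17521300 and Socs3 17547600 were 2.87 and 5.50.

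**Figure D4:**
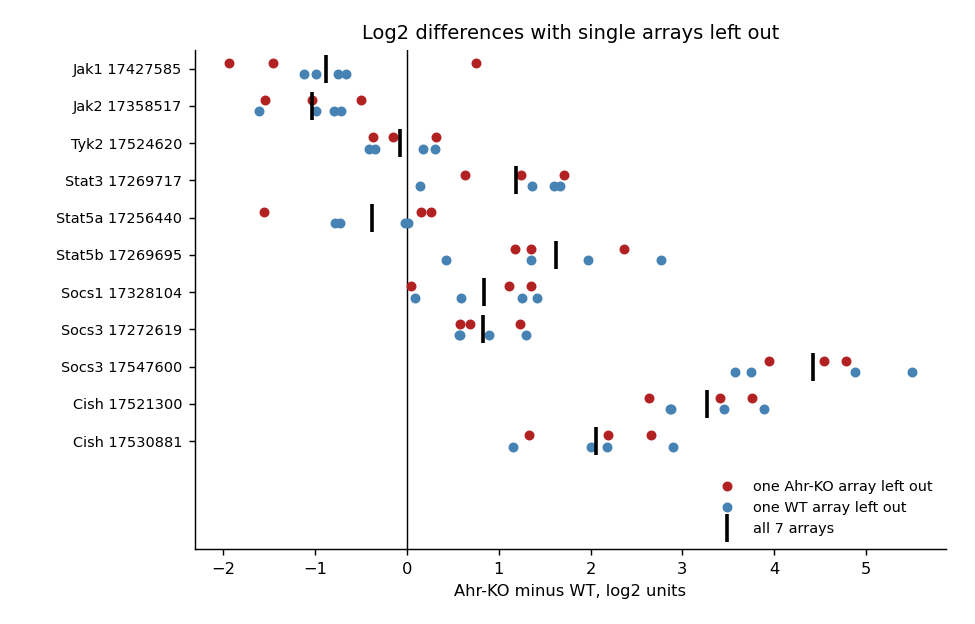
Each black tick is a log2 difference with all 7 arrays, and each point is the difference with 1 Ahr-KO array (red) or 1 WT array (blue) left out. The points of Jak1, Tyk2 and Stat5a lie on both sides of 0, and those of the other 8 probe sets on 1 side.

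Other genes of the pathway were read through 5 lists with 1 probe set per gene, the brightest over all 7 arrays. Of 72 listed genes 67 were measured. Ahr-KO had the higher value for 42 and the lower for 25, and 48.4% of all genes were higher. None passed the adjusted threshold by limma. An unadjusted p under 0.05 was reached by 3 of the 67 (4.48%, against 4.02% of all genes), 2 of them higher in Ahr-KO. The count was 1 without Ahr-KO replicate 3 and 6 with WT replicate 2 left out. It was 5 with a pseudocount of 16, after median centring or with array weights.

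Of 24 measured cytokine receptor chains, 12 were higher and 12 lower, with a median of 0.02 log2 units (-0.03 over all genes). Ifngr2, a chain of the interferon gamma receptor, which signals through Jak1 and Jak2, stood at 197, 248 and 956 on the Ahr-KO arrays, against 137, 103, 17.5 and 59.3 on those of WT. The groups did not overlap, and the log2 difference was 2.52 ± 0.86 (SE; limma unadjusted p = 0.0195, adjusted p = 0.963). Il12rb1, a receptor chain that works with Tyk2, stood at 13.3, 40.4 and 10.6 against 60.5, 28.9, 141 and 83.1, and its log2 difference was -1.85 ± 0.70 (SE; limma unadjusted p = 0.0304, adjusted p = 0.963). Csf2rb, the beta chain shared by the interleukin-3 and GM-CSF receptors, stood at 86.3, 106 and 101 in Ahr-KO. Its WT values were 42.2, 12.3, 7.03 and 91.9, so WT replicate 4 overlapped (difference 1.94; limma adjusted p = 0.963). Ifnar2, of the type I interferon receptor, differed by 1.96 (limma adjusted p = 0.963).

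Of the other Stat genes, Stat2 and Stat4 had higher and Stat6 lower values in Ahr-KO, with log2 differences of 0.89, 2.44 and -1.80 and overlapping groups. With a pseudocount of 16 these were 0.70, 1.48 and -1.21. Stat4 stood at 246, 315 and 417 on the Ahr-KO arrays, against 71.9, 0.24, 607 and 215 on those of WT. The size of its difference rests on WT replicate 2, near 0, while WT replicate 3 was the brightest array. Of the 5 other Socs genes 4 were higher, with a median of 0.53 and none under an unadjusted p of 0.05. Socs2, another Stat5 target, stood at 53.4, 74.7 and 59.4 on the Ahr-KO arrays, against 54.0, 1.92, 144 and 155 on those of WT, with no separation. Its log2 difference of 0.53 set the list's median and rests on the low value of WT replicate 2. With a pseudocount of 16 it was 0.03, and the linear means were 62.5 in Ahr-KO and 88.9 in WT. Socs4, Socs6 and Socs7 differed by 0.67, -0.76 and 1.43. Socs7 was bright on Ahr-KO replicate 2 (508) and WT replicate 4 (130) alone.

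Of 15 phosphatases, adaptors and Pias genes 11 were higher, with a median of 0.20. Stam2, an endosomal sorting adaptor, stood at 393, 115 and 35.6 on the Ahr-KO arrays, against 49.1, 36.6, 3.35 and 16.1 on those of WT (difference 2.62 ± 1.07, SE; limma unadjusted p = 0.0405, adjusted p = 0.963). Sh2b3, which encodes the Jak2 inhibitor Lnk, differed by -1.59, the ubiquitin ligase gene Cbl by -1.49 and the Jak2-binding adaptor gene Sh2b1 by 1.60, each with overlapping groups. Of 20 Stat3 and Stat5 target genes 13 were higher, with a median of 0.39 and none under an unadjusted p of 0.05. Cebpb, a myeloid transcription factor gene and Stat3 target, stood at 457, 716 and 429 on the Ahr-KO arrays, against 264, 263, 311 and 211 on those of WT, without overlap, and differed by 0.997 ± 0.43 (SE; limma unadjusted p = 0.0511, adjusted p = 0.963). Bcl6, a repressor gene regulated by Stat5, differed by -1.54, and Fos and the kinase gene Pim2 by 1.05 each.

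**Figure D5:**
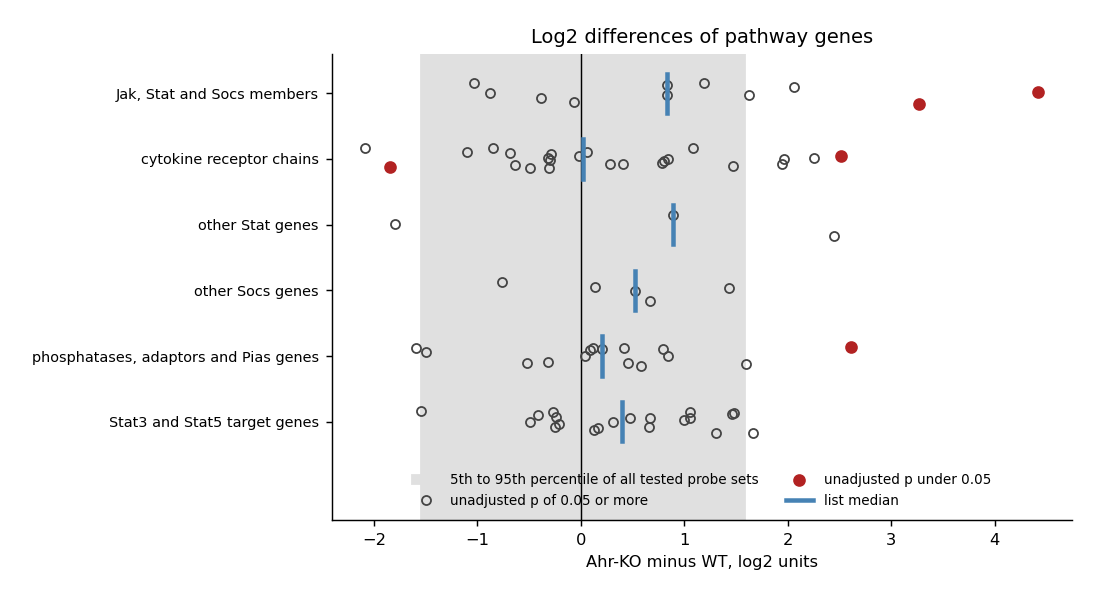
Each circle is a gene's log2 difference, Ahr-KO minus WT (for the members, a probe set's), filled red where the unadjusted p was under 0.05, with a blue line at each list's median. The grey band spans the 5th to the 95th percentile of all tested differences. The members' median is 0.84 and that of the 24 receptor chains 0.02.

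Markers of other blood cells were uneven between arrays. Cish and Socs3 are also transcribed in myeloid and lymphoid cells. Among the granulocyte and monocyte markers 12 of 13 were higher in Ahr-KO, and their summed intensity ran from 5782 to 16050 in Ahr-KO and from 882 to 17595 in WT. None was listed at exactly 0, and each passed the background mark on at least 1 array. WT replicate 1 had the lowest sum and WT replicate 2 the highest, and on these arrays, in that order, Cish 17521300 stood at 16.5 and 16.6 and Cish 17530881 at 303 and 7.03. Socs3 17547600 stood at 0.01 and 54.5 on the same arrays, and Socs3 17272619 at 17.1 and 40.7, so each Socs3 probe set had its highest WT value on the array with the highest sum. The order differed among the Ahr-KO arrays. Ahr-KO replicate 2 had the highest sum of its group (16050) but the lowest value of both Socs3 probe sets, 76.7 and 15.2. Ahr-KO replicate 1 had the lowest sum (5782) and the highest values of its group, 246 and 39.2. That order depends on the measure. By mean log2 of the same markers Ahr-KO replicate 3 was lowest (6.72), with replicate 1 at 7.59 and replicate 2 at 8.91. T and NK cell markers were higher for 6 of 9, with sums of 446 to 1159 in Ahr-KO and 264 to 667 in WT; 4 of them passed the mark on no array. The part of these cells in the Cish and Socs3 values was not tested. Of the remaining markers, values were higher in Ahr-KO for 4 of 7 of mast cells and basophils, 1 of 4 erythroid, 2 of 4 megakaryocyte, 0 of 7 B lymphoid and 2 of 9 macrophage and dendritic genes. Of the B lymphoid genes, 4 passed the mark on no array. The same held for 2 of the mast cell and basophil genes and 2 of the macrophage and dendritic genes. Values were higher for 2 of 9 HSC genes and 1 of the 2 genes (Cd48 and Itga2b) of proteins that SLAM-sorted HSCs lack. Slamf1 was among those 2 HSC genes. The summed intensity of the HSC genes ran from 1923 to 2850 in Ahr-KO and from 2700 to 7680 in WT. That of the erythroid genes ran from 419 to 1401 in Ahr-KO and from 1091 to 1900 in WT. Of all genes, 48.4% were higher.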

How the data were processed

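The deposited table holds 1 linear intensity per probe set and array. The submitters' processing notes name Affymetrix Expression Console. Not given in the sources used here are summarization, normalization and genome build. Per the labels' protocols, biotinylated cDNA was made from total RNA with a Nugen WT-Ovation kit. The platform annotation listed 25335 of the 41155 rows, 23521 with 1 symbol, and symbols were updated through RefSeq. Intensities were tested as log2(intensity + 1) by limma 3.58.1 under R 4.3.3 (lmFit, eBayes; two-sided), with genotype as the only term and all 7 arrays. Benjamini-Hochberg adjustment ran over all 25335 listed rows; 0.05 was the threshold. Fold changes are on this scale, and the fold of a probe set under the background mark is not known. The number of arrays limits the precision. On simulated data the procedure was held only to returning the mean size of planted differences. How many of them it detected was counted, but no standard was set for that count and it is not given here.

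The members, lists and background mark were chosen with earlier results of these data known. Named genes are all members and up to 4 per pathway list by smallest unadjusted p. Also named are 4 markers of the sort (Slamf1, Kit, Cd48 and Itga2b, the last by count only). Other markers are given by counts, with summed intensities or mean log2 values for some lists. Lists are described by counts and medians. Alternatives were single arrays left out, a replicate block, quantile normalization, median centring, another pseudocount, filters on dim probe sets, all rows, other variance priors, array weights and other background marks. Protein identities were not analysed here.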

Additional observations from a re-analysis of the deposited data

How the results depend on the processing

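By limma, no probe set passed an adjusted p of 0.05 in any of the 17 alternative fits, which tested 10731 to 41155 probe sets and gave 495 to 1781 with an unadjusted p under 0.05. With single arrays left out, 2 to 4 member probe sets had an unadjusted p under 0.05, 2 to 4 did not overlap between genotypes, and 1 to 6 pathway genes had an unadjusted p under 0.05. Of all tested probe sets, 3.77% to 5.29% were under 0.05 in those fits. The share of all probe sets without overlap was not counted for them. A filter at the median mean level removed both Socs3 probe sets and left 1 member by either count. The pathway count was 5 after median centring, with a pseudocount of 16 and with array weights. Of 11 member differences 8 kept their sign in every fit that held them. Jak1 ran from -1.94 to 0.75 with single arrays left out, Tyk2 from -0.41 to 0.31 and Stat5a from -1.56 to 0.26. Jak1 turned to 0.75 without Ahr-KO replicate 1. Tyk2 turned to 0.31, 0.17 and 0.31 without Ahr-KO replicate 1, WT replicate 1 and WT replicate 3. Stat5a turned to 0.15 and 0.26 without Ahr-KO replicates 1 and 3, and to 0.01 without WT replicate 4.

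Replicate numbers are shared by the genotypes but are not known to mark pairs. Deviations of same-numbered arrays from their group means correlated at 0.02, -0.06 and 0.01, and those of differently numbered arrays at -0.08 to 0.12. So few arrays cannot exclude pairing. With the replicate block Stat5a stood at 0.013, and the members under an unadjusted p of 0.05 were again 2, Cish 17521300 and Socs3 17547600. The 95th percentile mark put 48 of 77 member values above background, the 90th 54 and the 99th 34. Values below that mark on 3 or more arrays limit what the arrays show of Tyk2, Stat5a, Socs1 and both Socs3 probe sets; Socs3 17547600 was below it on 3 of 4 WT arrays.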
